A study of Mus musculus with 9 samples.

Results

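The genes of cholesterol synthesis and of its control by the sterol regulatory element-binding proteins (SREBPs) were followed in chondrocytes of mouse articular cartilage in primary culture, the cells that build and maintain the tissue. The group held 27 genes chosen by symbol from the 55450 rows of each deposited expression file, and 27 of 27 were found. They comprised 19 enzymes, 7 SREBP regulators and the sterol transport gene Stard4. Expression was given as FPKM, a level per gene that allows for exon length and sequencing depth, in 9 RNA-seq libraries. The 3 groups of 3 libraries shared their culture at 3% oxygen with 10% serum and a pretreatment with hyaluronidase, an enzyme that digests pericellular hyaluronan, at 4 U/mL for 4 h. Vehicle libraries came from cells given phosphate-buffered saline (PBS) for 24 h and then DMSO for 5 days. Bleomycin libraries came from cells given 50 µg/mL of the DNA-breaking antibiotic bleomycin for 24 h and then DMSO for 5 days. The remaining libraries came from cells given the same bleomycin treatment and then ST045849, an inhibitor of O-GlcNAc transferase, at 20 µM for 5 days. That enzyme adds a single sugar, N-acetylglucosamine, to proteins of the nucleus and cytoplasm. In every group the medium was renewed every 48 h after the first treatment. Cells given ST045849 without bleomycin were not analysed here, so ST045849 was compared only on bleomycin-treated cells. Nothing in the labels ties the libraries of a group to separate animals or cultures, and the p-values measure only the spread between these libraries.

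Cholesterol is made from acetyl-CoA through mevalonate, the isoprenoid diphosphates, squalene and lanosterol, and the isoprenoid branch also feeds protein prenylation, dolichol and ubiquinone. The SREBP transcription factors are made as precursors held in the endoplasmic reticulum by Scap and the Insig proteins. When membrane sterol falls, Scap carries the precursors to the Golgi apparatus, where the site-1 and site-2 proteases (encoded by Mbtps1 and Mbtps2) release the active factor. SREBP-2, from Srebf2, mainly drives sterol synthesis and uptake, while SREBP-1c, from Srebf1, mainly drives fatty acid synthesis and is itself induced by the oxysterol receptor LXR.

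The chondrocyte label was checked against 12 marker genes, all of which were tested and none of which was at 0 in any group. Their summed FPKM was 27787 to 38787 in vehicle, 20635 to 29317 in bleomycin and 17309 to 24599 in bleomycin plus ST045849 libraries. Library depth, read from the steps between low values, lay between 0.875 and 1.004 times that of vehicle library 1, and FPKM sums lay between 340303 and 483953. ST045849 libraries 2 and 3, and to a lesser degree vehicle library 1, stood apart from the others in how expression ran with gene length. The slope of expression on log10 exon length was -0.70 and -0.46 log2 units in ST045849 libraries 2 and 3. It was -0.24 in vehicle library 1 and between 0.06 and 0.34 in the remaining libraries. In whole-culture RNA, fewer cells of one type and less RNA per cell cannot be told apart. Of 55450 rows, 12441 genes that reached 1 FPKM in 3 or more libraries were tested, and 27 of the 27 sterol genes were among them. Differences are given in log2(FPKM + 1) with their standard error, a scale that understates changes of low genes, and a gene was called at a limma adjusted p under 0.05 over all tested genes.

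After bleomycin the SREBP gene Srebf1 fell and the retention factor gene Insig2 rose, and of the 19 enzymes only the farnesyl diphosphate synthase gene Fdps was called, at a lower level. Of the 27 genes, 3 were called (1 higher and 2 lower), against 4.88% of all tested genes (4.2% higher and 0.675% lower). At an unadjusted p under 0.05 there were 7 members (3 higher and 4 lower), against 17.4% of all genes. Of the 27 estimates 18 were below 0, against 38% of all genes, and the median difference was -0.17 against 0.10 over all genes. Adding ST045849 to bleomycin-treated cells gave no called member in limma's model of all 9 libraries, and 0 of 12441 genes were called, a share of 0%. In a limma fit of these 2 groups alone with the library number as a block, 3 members (Ebp higher, Hsd17b7 and Mbtps2 lower) were called, against 19.3% of all genes. In the model of all 9 libraries, 5 members had an unadjusted p under 0.05 for this comparison, against 22.5% of all genes. In bleomycin plus ST045849 against vehicle, Insig2 was higher and Srebf1 lower, which made 2 called members, against 9.85% of all genes (8.11% higher and 1.74% lower). At an unadjusted p under 0.05 there were 13 members (3 higher and 10 lower), against 31.1% of all genes. There 23 of 27 estimates were below 0, against 34.8% of all genes, with a median of -0.38 against 0.19. The 3 comparisons share libraries, so their estimates are not independent of each other. A single test across the 3 groups (limma's moderated F) called 2 of the 27 genes, Insig2 (adjusted p = 0.0156) and Srebf1 (adjusted p = 0.0396), against 6.77% of all genes.

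**Figure D1:**
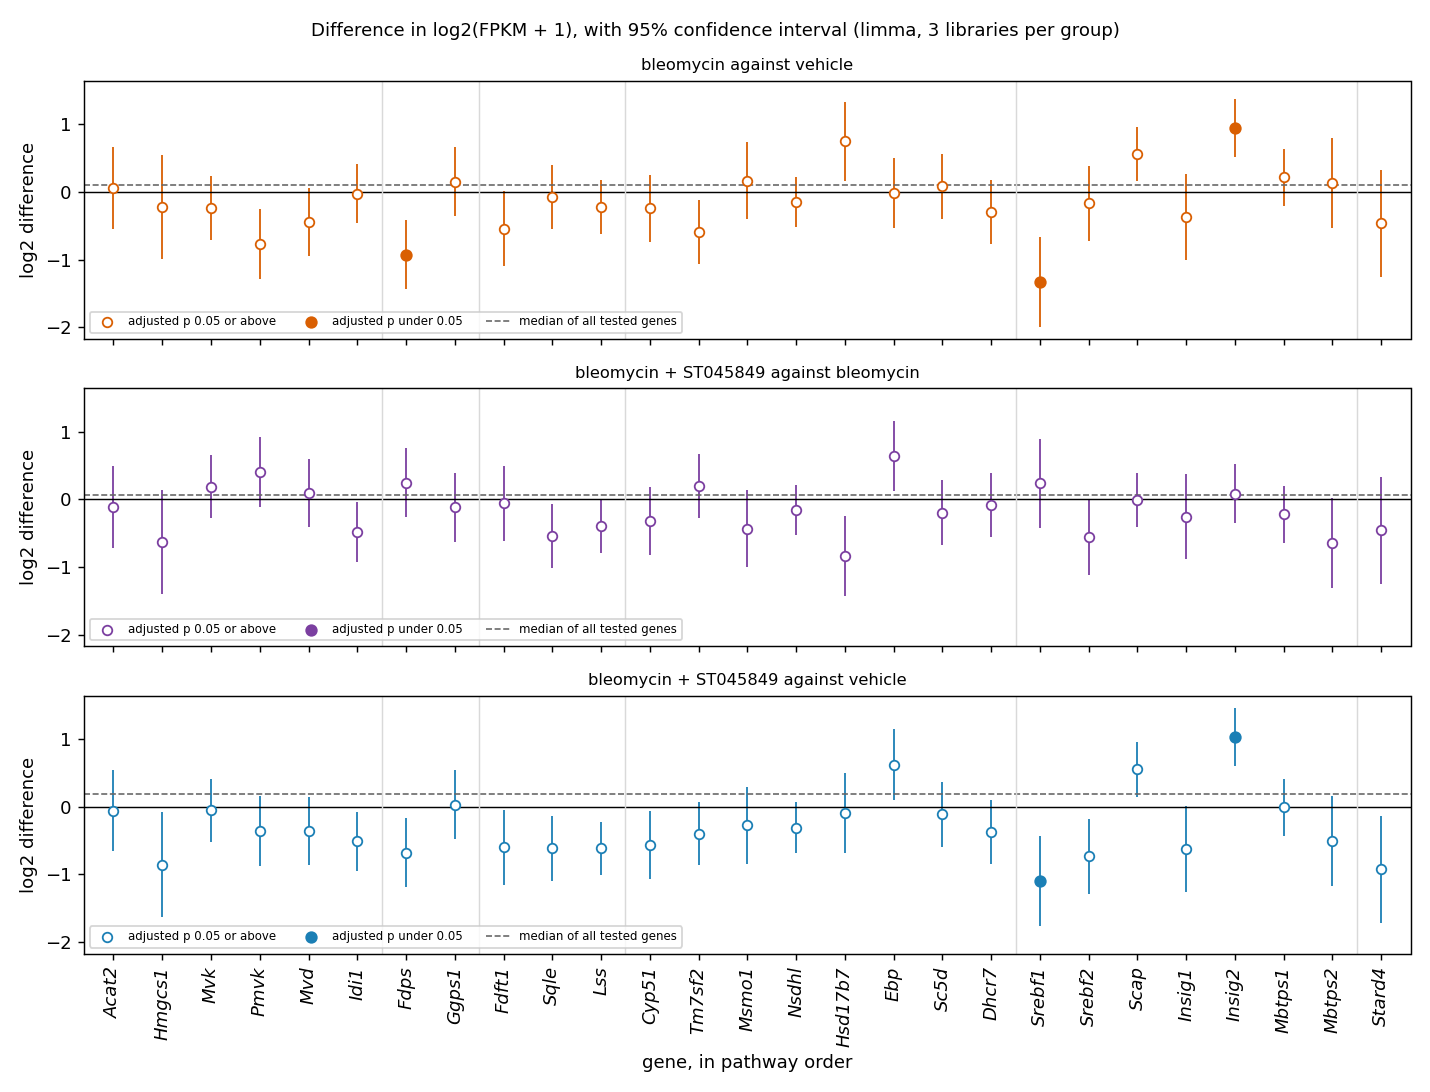
Difference in log2(FPKM + 1) of each of the 27 genes in pathway order (x axis) for the 3 comparisons, with 95% confidence intervals from limma (3 libraries per group); filled points have an adjusted p under 0.05 and the dashed line is the median of all tested genes. Srebf1 and Insig2 are filled in the first and last panels, Fdps in the first, and no point is filled in the middle panel.

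Srebf1 lies on chromosome 11 (60199089 to 60222581, minus strand, GRCm38) and was the most abundant of the 27 genes, at a mean of 45.7 FPKM over the 9 libraries. It was at 109, 55.9 and 60.1 FPKM in the vehicle libraries. With bleomycin it was at 31.2, 27.02 and 25.3 FPKM, and with bleomycin plus ST045849 at 48.0, 29.98 and 24.6 FPKM. Every vehicle library was above every treated library, vehicle library 1 was far above the other vehicle libraries, and ST045849 library 1 was the highest treated one. The mean fell from 75.0 ± 29.6 FPKM (SD, n = 3) to 27.9 ± 3.02 with bleomycin, which is 2.69-fold lower, with a log2 difference of -1.34 ± 0.30 (limma adjusted p = 0.0309). Against vehicle, bleomycin plus ST045849 was lower by a log2 difference of -1.10 ± 0.30 (adjusted p = 0.0432). The difference between bleomycin plus ST045849 and bleomycin was 0.24 ± 0.30, with a 95% interval from -0.43 to 0.90. When 1 vehicle or bleomycin library was left out, whichever it was, the call after bleomycin was lost, at adjusted p from 0.0592 (vehicle library 2) to 0.109 (bleomycin library 3), although the estimate stayed between -1.51 and -1.04. Leaving out any library except ST045849 library 1 ended the call against vehicle with ST045849, at adjusted p from 0.0598 (bleomycin library 1) to 0.134 (ST045849 library 3).

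Insig2, whose product retains Scap and the SREBP precursors in the endoplasmic reticulum, was the only member called higher. It lies on chromosome 1 (121304353 to 121332589, minus strand). It was at 21.2, 16.98 and 16.4 FPKM with vehicle, at 32.3, 36.6 and 38.8 FPKM with bleomycin, and at 35.3, 34.2 and 45.7 FPKM with bleomycin plus ST045849. The vehicle libraries lay wholly below the treated ones, and the treated groups overlapped each other. From 18.2 ± 2.61 FPKM the mean rose to 35.9 ± 3.30 with bleomycin, 1.98-fold, with a log2 difference of 0.95 ± 0.20 (limma adjusted p = 0.0207). With bleomycin plus ST045849 it was 38.4 ± 6.35 FPKM, a log2 difference of 1.03 ± 0.20 from vehicle (adjusted p = 0.0103) and of 0.09 ± 0.20 from bleomycin (95% interval -0.35 to 0.52). Leaving out vehicle library 2, vehicle library 3 or any bleomycin library ended the call after bleomycin, at adjusted p from 0.0578 (bleomycin library 1) to 0.106 (vehicle library 3). With ST045849 against vehicle the call ended when vehicle library 2 (adjusted p = 0.0553) or 3 (adjusted p = 0.0586) was left out.

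The promoters of these called regulators are printed with that of Hmgcs1, so that the letters around each start can be set beside the expression. Among members with a window, only Hmgcs1 has an exact match to the letters searched for the classical sterol regulatory element, TCACNCCAC. RefSeq (GRCm38.p6) gave windows for 23 of the 27 genes, and the 250 bases before each start were searched on both strands. The sequences run 5′ to 3′ on the gene's strand, and capitals mark motif matches.
Srebf1, chr11:60210472-60210721, minus strand: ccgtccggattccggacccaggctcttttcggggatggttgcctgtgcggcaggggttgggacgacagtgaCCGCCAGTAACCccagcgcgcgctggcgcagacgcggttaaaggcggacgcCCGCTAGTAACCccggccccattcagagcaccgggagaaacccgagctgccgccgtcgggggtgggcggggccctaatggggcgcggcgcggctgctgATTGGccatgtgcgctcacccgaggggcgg
Insig2, chr1:121332590-121332839, minus strand: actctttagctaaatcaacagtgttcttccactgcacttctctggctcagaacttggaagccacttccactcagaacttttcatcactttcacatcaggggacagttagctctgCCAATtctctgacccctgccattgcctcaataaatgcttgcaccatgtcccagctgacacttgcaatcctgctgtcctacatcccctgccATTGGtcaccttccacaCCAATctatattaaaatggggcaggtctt
Hmgcs1, chr13:119690101-119690350, plus strand: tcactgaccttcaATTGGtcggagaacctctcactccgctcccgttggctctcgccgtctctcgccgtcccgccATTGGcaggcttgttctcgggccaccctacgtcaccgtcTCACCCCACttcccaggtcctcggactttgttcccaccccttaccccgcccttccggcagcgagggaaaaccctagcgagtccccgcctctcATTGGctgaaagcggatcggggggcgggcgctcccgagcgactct
For Srebf1 the window shown is before the start at 60210471, one of 3 RefSeq starts and inside the annotated gene. This start was chosen because its window holds the LXR element letters given next. The windows before the starts at 60220627 and 60222581 hold 0 matches to them. The capitals of Srebf1 are 2 matches to the core of the LXR response elements described in this promoter, CCGCCAGTAACC and CCGCTAGTAACC on the strand shown, at 179 to 168 and 128 to 117 bases before the start, and 1 match to CCAAT. That core, with any base at its one variable position, was searched after the sequence had been seen, and it occurs in 2 of 32851 windows of all genes. The Insig2 window shown, before its most upstream start (121332589), has 3 CCAAT matches. The windows before its starts at 121327678 and 121328024 have 0. Hmgcs1 has TCACNCCAC, an element bound by SREBPs, at 137 to 129 bases before its start, and 3 CCAAT matches. TCACNCCAC occurs in 1.05% of all windows and in 1 of the 31 windows of members. CCAAT, the letters bound by the NF-Y factor that works beside SREBPs, occurs in 64.5% of the members' windows and 33.8% of all windows. The E-box CACGTG occurs in 16.1% and 6.02%, respectively. A match describes letters only, and binding was not measured. Only these exact letters were searched, so a window without a match is not shown to lack a site for SREBPs. The Fdps, Fdft1, Sqle and Stard4 genes had no entry.

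Srebf2, the main SREBP gene of sterol synthesis, differed from Srebf1 in where its low values fell. It was at 23.3, 24.1 and 22.5 FPKM with vehicle and at 23.6, 20.4 and 18.0 FPKM with bleomycin. With bleomycin plus ST045849 it was at 21.1, 12.1 and 9.87 FPKM, so ST045849 libraries 2 and 3 were lower than all other libraries and library 1 was within the bleomycin range. The difference of bleomycin plus ST045849 from bleomycin was -0.56 ± 0.25 (adjusted p = 0.221) and from vehicle -0.73 ± 0.25 (adjusted p = 0.0843), and Srebf2 was not called in any comparison. Without ST045849 library 1 it was called lower in both of these, where 2219 (18%) and 3054 of 12357 tested genes were called, respectively. With each library's length trend removed and all libraries kept, its difference was -0.36 from bleomycin (limma adjusted p = 0.446). From vehicle it was then -0.69 (limma adjusted p = 0.0979).

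Scap, which escorts the SREBP precursors, was at 13.8, 12.996 and 12.5 FPKM with vehicle, at 17.9, 21.7 and 19.9 FPKM with bleomycin and at 20.9, 22.2 and 16.3 FPKM with bleomycin plus ST045849. The treated libraries were all above the vehicle ones. The difference after bleomycin was 0.56 ± 0.18 (adjusted p = 0.117) and that with ST045849 against vehicle was 0.55 ± 0.18 (adjusted p = 0.0759), so neither passed. Insig1, the second retention factor and a target of SREBPs, was at 9.47, 10.1 and 11.7 FPKM with vehicle, at 8.88, 8.36 and 6.42 FPKM with bleomycin and at 10.5, 3.70 and 6.47 FPKM with bleomycin plus ST045849. All bleomycin libraries were under all vehicle libraries, whereas those with ST045849 spread across both groups. Insig1 was not called in any comparison, and its estimates lay on the opposite side of 0 from those of Insig2 in bleomycin against vehicle and in bleomycin plus ST045849 against vehicle.

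The protease genes were not called in the model of all 9 libraries. Mbtps1 was at 37.5 to 43.5 FPKM with vehicle, 45.3 to 49.8 with bleomycin and between 34.3 and 49.2 with bleomycin plus ST045849. The bleomycin libraries were all above the vehicle ones, and the ST045849 libraries overlapped both groups. Mbtps2 was at 4.79 to 7.05 FPKM with vehicle and 5.29 to 7.66 with bleomycin, and at 5.93, 1.96 and 4.95 FPKM with bleomycin plus ST045849. ST045849 library 2 had the lowest Mbtps2 value of all 9. In the annotation 28.4% of the Mbtps2 exon bases are shared with Yy2 on the same strand, so reads of the pair may be split or joined in the deposited values.

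**Figure D2:**
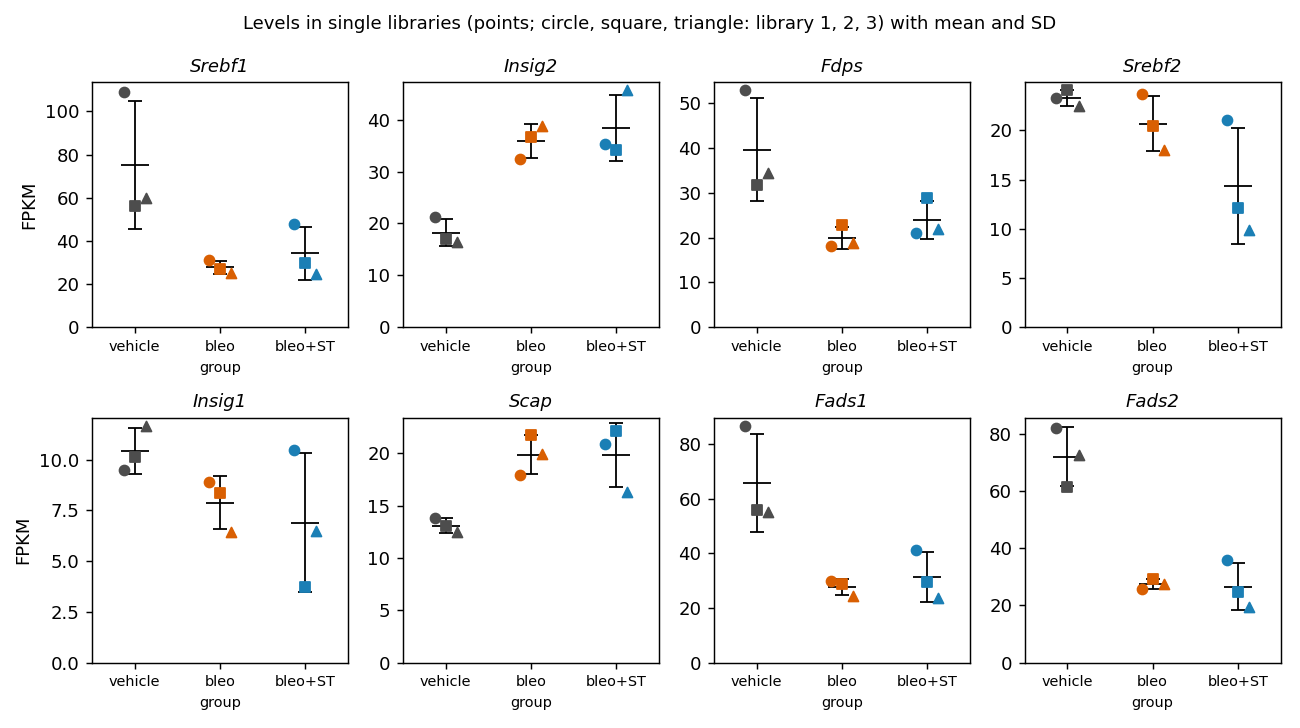
FPKM of 8 genes in single libraries (points; the shape gives the library number) with the mean and SD of each group of 3 (lines), on axes from 0. Vehicle libraries lie above both treated groups for Srebf1, Fdps, Fads1 and Fads2 and below them for Insig2 and Scap, and ST045849 libraries 2 and 3 are the lowest for Srebf2.

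The mevalonate steps held 6 enzymes, none of which was called in any comparison. Hmgcs1, which makes HMG-CoA, was at 14.9, 30.7 and 30.6 FPKM with vehicle, at 19.1, 20.1 and 22.7 FPKM with bleomycin and at 15.4, 7.19 and 18.985 FPKM with bleomycin plus ST045849. Vehicle library 1 stood far under the other vehicle libraries, and all ST045849 libraries were under all bleomycin ones, with a log2 difference of -0.63 ± 0.35 (adjusted p = 0.277). Pmvk, phosphomevalonate kinase, was at 20.4, 12.3 and 13.9 FPKM with vehicle, at 8.38, 8.95 and 8.26 FPKM with bleomycin and at 8.57, 13.1 and 14.0 FPKM with bleomycin plus ST045849. Its bleomycin libraries were all under the vehicle ones (-0.77 ± 0.24, adjusted p = 0.097), and ST045849 libraries 2 and 3 were within the vehicle range. Mvd, mevalonate diphosphate decarboxylase, was at 7.56 to 10.5 FPKM with vehicle, 5.32 to 7.01 with bleomycin and between 5.08 and 8.83 with bleomycin plus ST045849, again with no overlap between vehicle and bleomycin.

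Idi1, isopentenyl diphosphate isomerase, was the least abundant member, at 0.958, 2.11 and 1.44 FPKM with vehicle and 1.48, 1.51 and 1.26 FPKM with bleomycin. It was at 0.974, 0.455 and 0.785 FPKM with bleomycin plus ST045849, under all bleomycin libraries, with a log2 difference of -0.48 ± 0.20 (adjusted p = 0.208). At these low levels the pseudocount of 1 compresses the difference. The groups overlapped throughout for Acat2, an acetyl-CoA acetyltransferase (5.33 to 10.8 FPKM over the 9 libraries), and for Mvk, mevalonate kinase (8.13 to 14.1 FPKM).

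Of the 2 prenyl diphosphate synthases, Fdps fell with bleomycin and Ggps1 was not called. Fdps makes farnesyl diphosphate, the branch point towards squalene, prenylation, dolichol and ubiquinone. It was at 52.9, 31.7 and 34.4 FPKM with vehicle, at 18.2, 22.7 and 18.9 FPKM with bleomycin and at 21.1, 28.8 and 21.9 FPKM with bleomycin plus ST045849. All vehicle libraries were above all treated ones, and vehicle library 1 was the highest by a wide margin. The mean went from 39.6 ± 11.5 to 19.9 ± 2.45 FPKM with bleomycin, 1.99-fold lower, with a log2 difference of -0.93 ± 0.23 (limma adjusted p = 0.0456). Bleomycin plus ST045849 against vehicle gave -0.68 ± 0.23 (adjusted p = 0.0804) and against bleomycin 0.25 ± 0.23 (adjusted p = 0.498). The fall was no longer called when ST045849 library 3 or any of the vehicle and bleomycin libraries was left out, at adjusted p from 0.0573 (ST045849 library 3) to 0.163 (bleomycin library 1). Exon bases of Fdps are shared with Gm43738 on the same strand over 26.7% of their length, which leaves its level uncertain. Ggps1, which extends farnesyl to geranylgeranyl diphosphate, was at 7.46 to 10.2 FPKM with vehicle, 8.29 to 11.04 with bleomycin and between 6.26 and 11.5 with bleomycin plus ST045849.

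The 3 enzymes from farnesyl diphosphate to lanosterol had estimates below 0 in all comparisons, and none was called. Fdft1, squalene synthase, was at 17.9, 12.2 and 16.2 FPKM with vehicle, at 7.75, 11.2 and 11.9 FPKM with bleomycin and at 11.5, 6.85 and 11.5 FPKM with bleomycin plus ST045849. The vehicle libraries were above all treated ones, by small margins at vehicle library 2. Sqle, squalene epoxidase and a rate-controlling step of the pathway, was at 18.5, 16.4 and 17.7 FPKM with vehicle and at 13.2, 17.6 and 19.5 FPKM with bleomycin. It was at 13.3, 8.47 and 12.0 FPKM with bleomycin plus ST045849, under every vehicle library but overlapping the bleomycin group at its library 1. The difference from bleomycin was -0.54 ± 0.22 (adjusted p = 0.204) and from vehicle -0.62 ± 0.22 (adjusted p = 0.087).

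Lss, lanosterol synthase, was the only member whose 3 groups were fully separated in a descending order. It was at 7.06, 8.25 and 7.66 FPKM with vehicle, at 6.03, 6.82 and 6.39 FPKM with bleomycin and at 5.81, 4.26 and 3.99 FPKM with bleomycin plus ST045849. Its means were 7.66 ± 0.593, 6.41 ± 0.397 and 4.69 ± 0.981 FPKM. The difference of the last from vehicle was -0.62 ± 0.18 (adjusted p = 0.0536), just outside the threshold, and that of bleomycin from vehicle was -0.22 ± 0.18 (adjusted p = 0.617). Without ST045849 library 1 the difference of bleomycin plus ST045849 from vehicle passed (adjusted p = 0.0184), where 3054 of 12357 tested genes were called. Removing each library's length trend changed it to -0.39 (adjusted p = 0.184).

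Of the 8 enzymes from lanosterol to cholesterol none was called in the model of all 9 libraries, and single genes went in different directions. Hsd17b7, a sterol ketoreductase, was at 2.26, 3.78 and 4.25 FPKM with vehicle, at 4.82, 6.86 and 7.42 FPKM with bleomycin and at 3.85, 1.88 and 3.84 FPKM with bleomycin plus ST045849. The bleomycin libraries were above all libraries of both other groups. The difference of bleomycin from vehicle was 0.75 ± 0.27 (adjusted p = 0.157), and that of bleomycin plus ST045849 from bleomycin was -0.84 ± 0.27 (adjusted p = 0.203). Ebp, the sterol isomerase, was at 12.4, 7.38 and 8.65 FPKM with vehicle, at 8.89, 9.38 and 9.12 FPKM with bleomycin and at 10.8, 17.9 and 16.7 FPKM with bleomycin plus ST045849. Its ST045849 libraries were all above the bleomycin ones (0.64 ± 0.24, adjusted p = 0.203), with library 1 closest to them.

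Tm7sf2, a sterol reductase, was at 4.17, 3.13 and 2.48 FPKM with vehicle, at 1.41, 2.08 and 1.90 FPKM with bleomycin and at 1.67, 2.97 and 2.08 FPKM with bleomycin plus ST045849. Its bleomycin libraries were all under the vehicle ones (-0.60 ± 0.21, adjusted p = 0.156). Tm7sf2 shares 12.1% of its exon bases with Vps51 on the same strand, which leaves its level uncertain. Cyp51, lanosterol demethylase, was at 13.1 to 18.0 FPKM with vehicle, 11 to 14.3 with bleomycin and between 7.17 and 12.5 with bleomycin plus ST045849. The vehicle and ST045849 groups of Cyp51 did not overlap (-0.57 ± 0.23, adjusted p = 0.122). Nsdhl, a sterol dehydrogenase, was at 9.51 to 11.04 FPKM with vehicle and 7.85 to 8.78 with bleomycin plus ST045849, also without overlap, and at 8.22 to 10.2 with bleomycin. For the methyl oxidase gene Msmo1 (9.27 to 22.2 FPKM over the 9 libraries), the desaturase gene Sc5d (5.70 to 10.1 FPKM) and the reductase gene Dhcr7 (6.02 to 11.5 FPKM) all groups overlapped.

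Stard4, which carries cholesterol between membranes, was at 11.4, 18.0 and 13.8 FPKM with vehicle, at 12.8, 10.3 and 7.55 FPKM with bleomycin and at 13.2, 3.65 and 6.72 FPKM with bleomycin plus ST045849. ST045849 library 1 lay within the vehicle range while libraries 2 and 3 were lower than all others. The difference from vehicle was -0.92 ± 0.36 (adjusted p = 0.114), and Stard4 was not called in any comparison.

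**Figure D3:**
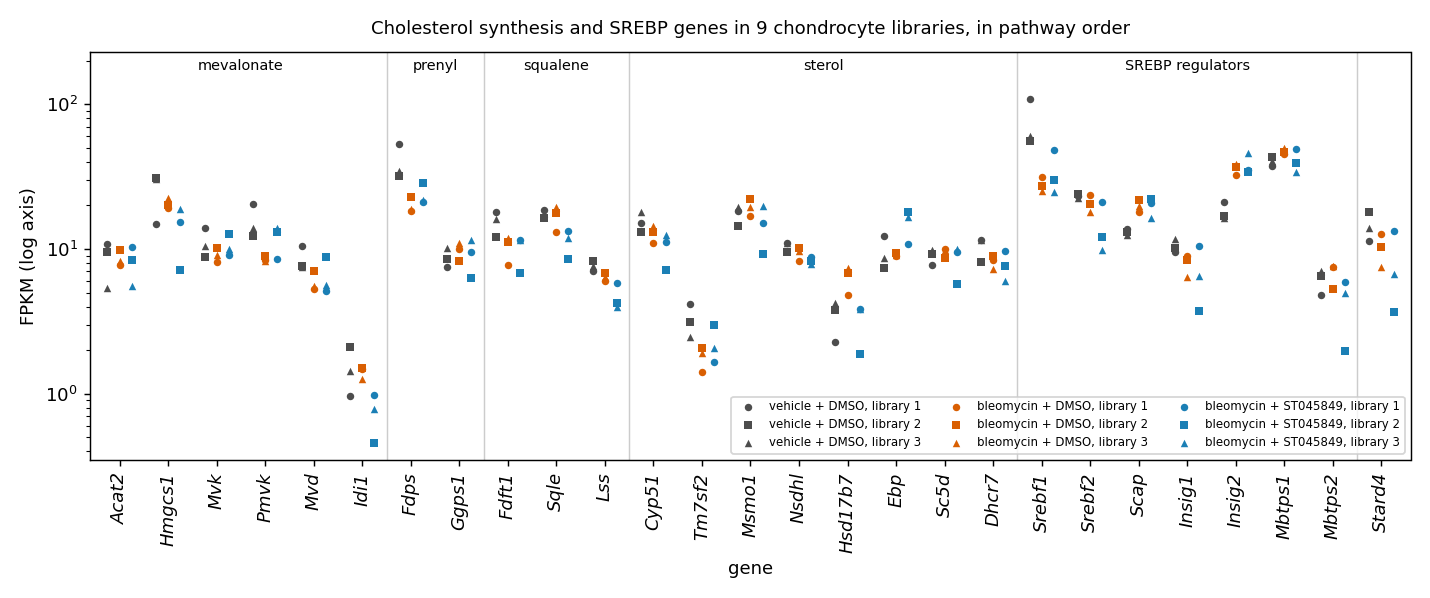
FPKM (log axis) of each of the 27 genes in pathway order (x axis) in the 9 libraries; the colour gives the group and the shape the library number. Srebf1 and Fdps have all vehicle points above the treated ones, Insig2 has them below, and Idi1 is the lowest gene.

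Counted over the 27 genes, the groups of bleomycin and vehicle did not overlap for 12, against 28% of all genes. The 4 higher with bleomycin were Hsd17b7, Scap, Insig2 and Mbtps1, against 21.4% of all genes. The 8 lower were Pmvk, Mvd, Fdps, Fdft1, Lss, Tm7sf2, Srebf1 and Insig1, against 6.53% of all genes. Between bleomycin plus ST045849 and vehicle 10 did not overlap, against 27.7% of all genes. Of these, Insig2 and Scap were higher without overlap, against 21% of all genes. There 8 were lower, namely Fdps, Fdft1, Sqle, Lss, Cyp51, Nsdhl, Srebf1 and Srebf2, against 6.66% of all genes. The summed FPKM of the 19 enzymes was 217 to 258 with vehicle, 175 to 206 with bleomycin and between 166 and 195 with bleomycin plus ST045849, so the vehicle libraries were above all others in this sum.

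Of the 27 differences between bleomycin plus ST045849 and bleomycin, 19 were below 0, against 44.9% of all genes, with a median of -0.16 against 0.06. The groups did not overlap for 5 members, against 25.2% of all genes. Ebp was higher, against 16.5% of all genes, and Hmgcs1, Idi1, Lss and Hsd17b7 were lower, against 8.67%. At an unadjusted p under 0.05, Ebp was higher and Idi1, Sqle, Hsd17b7 and Srebf2 were lower. Equal library numbers of these groups deviated together, and the fit of the 2 groups alone with that number as a block called 3 members among 2403 genes. That fit changed 2 choices, and each choice by itself, the block in the model of all 9 libraries or the 2 groups alone without a block, called 0 genes. They were Ebp, higher by 0.64 (adjusted p = 0.0428), and Hsd17b7 and Mbtps2, lower with differences of -0.84 (adjusted p = 0.0303) and -0.64 (adjusted p = 0.0466). When each library's trend with gene length was also removed from the blocked fit, 0 members and 170 genes (1.37%) were called, and Ebp was at 0.34 (adjusted p = 0.223), Hsd17b7 at -0.80 (adjusted p = 0.0796) and Mbtps2 at -0.29 (adjusted p = 0.305). Without ST045849 library 1, the fit of all remaining libraries called Ebp higher and Hsd17b7 and Srebf2 lower among 2219 genes (18%).

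The sign of a member's ST045849 difference ran with its exon length. Of the 16 members longer than the median tested gene (4247 bases of exon), 14 were below 0, against 68.3% of all genes of that length. Of the 11 shorter members 5 were below 0, against 21.6%. Across the 27 genes Spearman's rho between exon length and the difference was -0.52 for bleomycin plus ST045849 against bleomycin, 0.28 for bleomycin against vehicle and -0.22 for bleomycin plus ST045849 against vehicle. These are descriptions across genes that share the same libraries. ST045849 library 2, which has the most negative length slope, was the lowest of the 9 libraries for 9 of the 19 enzymes, against 23.1% of all tested genes. The part of length in these differences was not tested beyond removing its trend. With the trend removed, bleomycin plus ST045849 against vehicle called 8 members, against 6.29% of all genes. These were Insig2, higher, and Pmvk, Mvd, Fdps, Sqle, Cyp51, Nsdhl and Srebf1, lower. Removing the trend also moved the median of all genes from 0.19 to 0.01. Relative to that median, the members' median was -0.57 before and -0.59 after. Median-of-ratios scaling, which has no length step, called 6 members among 863 genes. With the trend removed in a blocked fit of these 2 groups alone, 0 members were called among 239 genes.

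**Figure D4:**
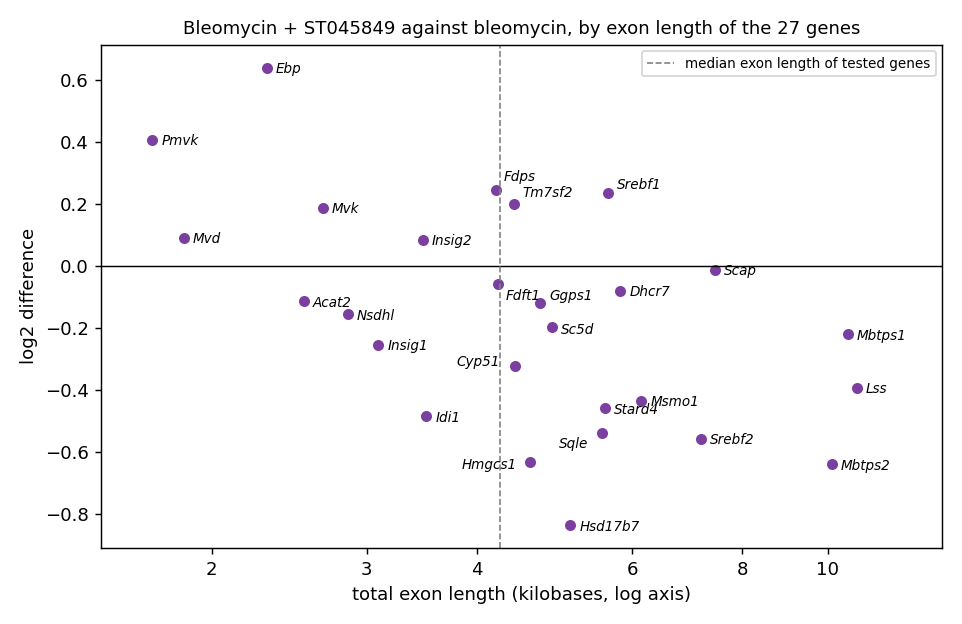
Log2 difference between bleomycin plus ST045849 and bleomycin (y axis) against total exon length in kilobases (x axis, log scale) for the 27 genes; the dashed line is the median exon length of tested genes. Shorter genes such as Ebp and Pmvk lie above 0, and 14 of the 16 longer genes lie below it.

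**Figure D5:**
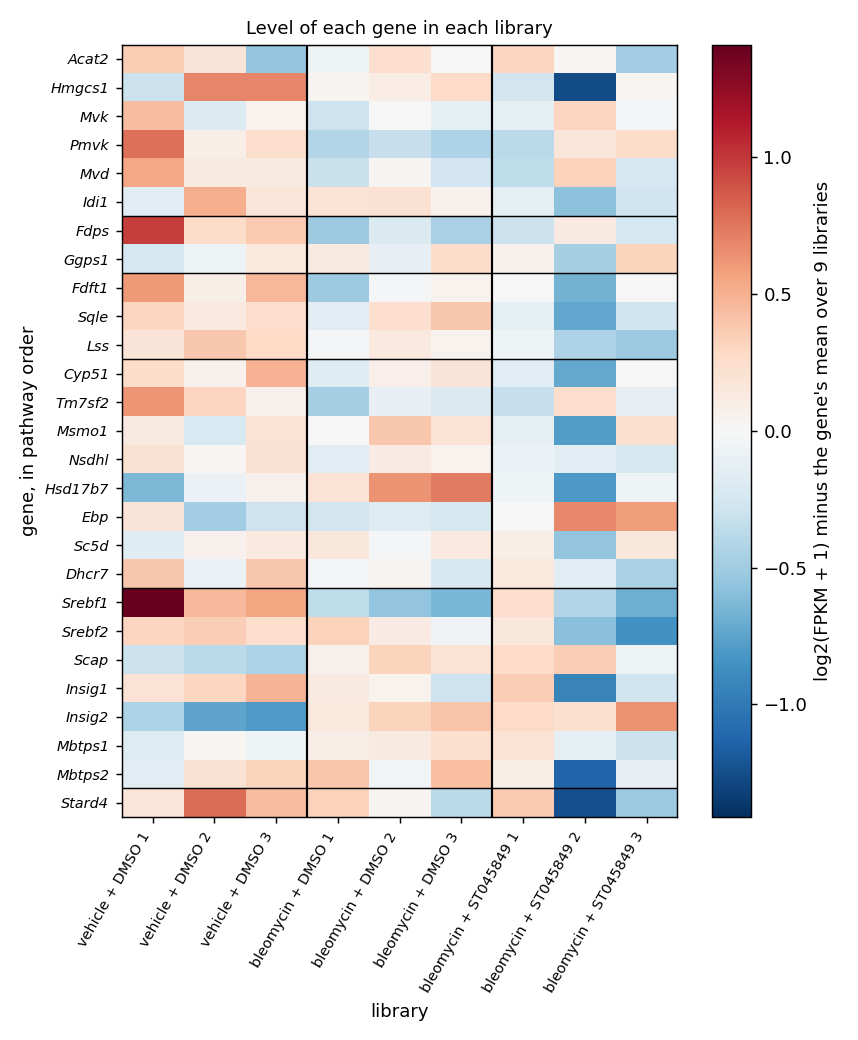
Level of each of the 27 genes (rows, in pathway order) in each library (columns) as log2(FPKM + 1) minus the gene's mean over the 9 libraries. Vehicle library 1 is high for Srebf1, Fdps and Pmvk, ST045849 library 2 is low for many enzymes, and Insig2 is low in the vehicle libraries.

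Genes around the pathway were taken from 5 further lists of 66 symbols. Among 15 tested genes of fatty acid synthesis and SREBP-1 targets, 2 fell with bleomycin and none rose, against 0.675% of all genes lower and 4.2% higher, and 4 fell with bleomycin plus ST045849 against vehicle, against 1.74% of all genes. Fads2, a fatty acid desaturase, was at 82.0, 61.4 and 72.5 FPKM with vehicle, at 25.9, 29.2 and 27.5 FPKM with bleomycin and at 35.7, 24.6 and 19.4 FPKM with bleomycin plus ST045849. The vehicle libraries were far above the treated ones, which overlapped each other, and the difference after bleomycin was -1.35 ± 0.23 (limma adjusted p = 0.00907). Leaving out any 1 of the 9 libraries kept this call, at adjusted p up to 0.0455. Fads1, its neighbour in the same desaturation pathway, fell from 65.9 ± 17.9 to 27.7 ± 2.94 FPKM (-1.19 ± 0.25, adjusted p = 0.0243), a call that ended when any 1 of the vehicle and bleomycin libraries was left out (adjusted p from 0.0604 without vehicle library 3 to 0.0987 without bleomycin library 3). Against vehicle, bleomycin plus ST045849 lowered Fads2 (-1.44 ± 0.23, adjusted p = 0.00547) and the stearoyl-CoA desaturase gene Scd1 (-1.68 ± 0.33, adjusted p = 0.0129). Scd1 was no longer called when vehicle library 2, vehicle library 3 or ST045849 library 3 was left out, at adjusted p from 0.0513 to 0.0594. The list's median difference was -0.16 after bleomycin and -0.42 with ST045849 against vehicle, against 0.10 and 0.19 over all genes.

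Of 6 tested genes in the list of other sterol synthesis and uptake genes, none was called after bleomycin and 3 fell with bleomycin plus ST045849 against vehicle (1.74% of all genes). The median was -0.21 and -0.87 in these comparisons. Vldlr, a lipoprotein receptor, had the highest mean of this list, at 24.8 ± 2.19, 27.9 ± 4.8 and 26.1 ± 5.00 FPKM in vehicle, bleomycin and bleomycin plus ST045849 libraries. Of 14 tested genes of sterol efflux, esterification and LXR targets, 1 rose with bleomycin, against 4.2% of all genes, and 3 rose with bleomycin plus ST045849 against vehicle, against 8.11% of all genes, and none fell. A single gene of 14 is near the share over all genes. Npc2, the lysosomal cholesterol carrier, was at 60.8, 42.5 and 43.8 FPKM with vehicle, at 89.5, 79.3 and 64.6 FPKM with bleomycin and at 97.3, 119 and 97.9 FPKM with bleomycin plus ST045849. All 3 groups were separated in ascending order, and the last differed from vehicle by 1.09 ± 0.22 (limma adjusted p = 0.0134), a call lost without vehicle library 2 (adjusted p = 0.0726) or 3 (adjusted p = 0.0692). None of 11 genes of the isoprenoid, dolichol and ubiquinone branch was called in any comparison. Fnta, the shared subunit of the protein prenyltransferases and the highest of that list, was at 54.9 ± 8.87, 58.6 ± 6.13 and 86.3 ± 16.4 FPKM in the 3 groups. Of 15 further regulators of SREBPs, only Prkaa2, a catalytic subunit of the energy sensor AMPK, was called. It was lower with bleomycin plus ST045849 than with vehicle (-0.90 ± 0.23, adjusted p = 0.0371), at 1.22 ± 0.466 against 3.15 ± 0.972 FPKM. In that comparison 1.74% of all genes were called lower, so a single gene of 15 says little about the list. The Prkaa2 call ended when vehicle library 2 or 3, bleomycin library 1 or 3, or ST045849 library 2 or 3 was left out, at adjusted p from 0.0527 to 0.150. Adding ST045849 to bleomycin called 0 genes in all 5 lists.

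Lists of genes named as markers of other cell types were read beside these differences. Which cells expressed these genes was not tested, and chondrocytes themselves may have done so. Of 10 macrophage markers 3 were tested, and those 3 (Lyz2, Cd68 and Cd14) rose after bleomycin, where 4.2% of all genes did. The summed level of the list was 3.05 to 5.75 FPKM with vehicle, 10.9 to 12.6 with bleomycin and between 11.9 and 18.0 with bleomycin plus ST045849, with C1qb, C1qc and Tyrobp at 0 throughout. Of 6 adipocyte markers 3 were tested, of which Pparg was called higher after bleomycin, against 4.2% of all genes. With bleomycin plus ST045849 against vehicle, Pparg and Fabp4 were called higher, against 8.11% of all genes. The list summed to 13.8 to 22.2, 21.3 to 24.6 and 34.2 to 48.3 FPKM, with Adipoq and Plin1 under the filter and Cidec at 0 in the vehicle and bleomycin groups. Of 10 fibroblast or synovial markers 4 rose after bleomycin, against 4.2% of all genes. All 10 summed to 3860 to 4806, 6186 to 8576 and 3480 to 6925 FPKM. The osteoblast list held 5 tested genes, of which 2 rose after bleomycin, against 4.2% of all genes. It summed to 252 to 573, 1675 to 2355 and 1206 to 1622 FPKM. Of 5 skeletal muscle markers 3 were tested and none was called, and none of 5 endothelial markers reached the filter. Of the 12 chondrocyte markers 4 fell in bleomycin plus ST045849 against vehicle, where 1.74% of all genes did. The part of a changed cell mixture in the levels of the sterol genes was not tested.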

How the data were processed

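RNA-seq of 9 libraries of primary mouse articular chondrocytes in 3 groups was used. Libraries were made with a stranded mRNA kit, per the labels' protocols. The submitters' processing notes name Trimmomatic and STAR as tools and GRCm38 as genome build. The deposited values are FPKM per gene, computed by the authors. The sources used here do not give the counting program, its annotation or its use of strand, so overlapping genes are uncertain. This includes members that share exon bases with a gene on the opposite strand. The largest such shares were 18.3% in Fdft1 (with Ctsb), 13.2% in Scap and 12.1% in Hmgcs1.

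The 27 symbols and all other lists were chosen with earlier results of these data known. Of the other lists, up to 2 genes called higher and 2 called lower per comparison are named by adjusted p, otherwise the gene with the highest mean; some genes of these lists are not reported here by name. The 12441 genes that reached 1 FPKM in 3 or more libraries were fitted as log2(FPKM + 1) in 1 model of 3 group means with limma 3.58.1 in R 4.3.3, with a variance trend (6 residual and 4.95 prior degrees of freedom) and Benjamini-Hochberg adjustment over these genes. All adjusted p-values in the text come from limma. The code was tested on simulated data. No 2 libraries held identical values. Exon lengths came from GENCODE vM21, which held 99.5% of the identifiers. Promoter windows came from RefSeq. FPKM hold no read counts, so depth was estimated only relative to vehicle library 1 and no counting interval is given.

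For pairing, deviations from the group means were correlated between equal replicate numbers. The correlations were 0.466, 0.481 and 0.5 between bleomycin and bleomycin plus ST045849, so that comparison is also given with the number as a block. The labels state no shared source. They were -0.0711, -0.026 and 0.546 between bleomycin and vehicle, and -0.519, -0.279 and 0.424 between bleomycin plus ST045849 and vehicle. Settings varied were the pseudocount, the filter, the scaling, the block, the groups fitted and the length trend, 11 in all, and each of the 9 libraries was left out in turn.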

Additional observations from a re-analysis of the deposited data

How the results depend on the processing

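Over 11 other settings and 9 fits that left out 1 library, every estimate with an unadjusted p under 0.05 for a sterol gene, and every called gene of the other lists, kept its sign where it was tested. Counts of calls did not hold as well, and the cause was not tested. In bleomycin against vehicle, where 3 members and 607 of 12441 tested genes were called, 1 member was called with no filter. At a mean of at least 5 FPKM, 284 of 8015 tested genes were called. A fit of the 2 groups alone called 1024 genes. With the length trend removed and a replicate block in 2 groups, 5 members and 1048 genes were called. The members' median was -0.30 with median-of-ratios scaling and -0.33 with the length trend removed, with or without the block. Leaving out 1 library gave 0 to 3 members and 184 to 820 genes.

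In bleomycin plus ST045849 against bleomycin, where 0 were called, 1 gene was called with no filter and 2 each at a mean of at least 5 FPKM, with quantile normalization and with the length trend removed. The replicate block called 0 genes in the model of all libraries and 3 members and 2403 genes in 2 groups, which without it called 0, and with the length trend also removed 170 genes. The members' median was -0.44 as TPM, where the median of all genes moved from 0.06 to -0.19. Leaving out 1 library gave 0 to 3 members, 0 to 2219 genes and a median of -0.29 to -0.10.

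In bleomycin plus ST045849 against vehicle, where 2 members and 1225 genes were called, the counts were 1 member and 651 genes with no filter, 660 genes at a mean of at least 5 FPKM, 6 members (of 863 genes called) with median-of-ratios scaling, 5 members (of 840 genes) with quantile normalization, and 710 genes as TPM. They were 1 member and 621 genes in 2 groups alone, 0 members and 199 genes with a replicate block there, 8 members and 782 genes with the length trend removed, and 0 members and 239 genes with both. The members' median was -0.57 with median-of-ratios scaling, -0.65 as TPM and -0.58 with the length trend removed, with or without the block. Leaving out 1 library gave 0 to 8 members and 286 to 3054 genes. The most came without ST045849 library 1, where 8 of 27 members and 3054 of 12357 tested genes were called. Calls were thus common among all genes in that fit. The test across 3 groups called 1 member with no filter and 5 with the length trend removed. With 1 library left out it called 0 to 9, the most without ST045849 library 1. The share of all genes that this test called in these settings was not computed, so these counts are not a result about the members.

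Median-of-ratios scaling moved the median of all genes from 0.10 to -0.02 after bleomycin and from 0.19 to 0.00 with ST045849 against vehicle. It lowered the share of higher genes among those called from 86.2 to 71.9% and from 82.4 to 57.7%, and quantile normalization lowered it to 67.7 and 61.7%. Relative to the median of all genes, the members' median was -0.27 and -0.29 in the first and -0.57 and -0.57 in the second under the deposited and the median-of-ratios scale. With 3 libraries per group, a difference that was not called is not shown to be absent.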
